A study of Mus musculus with 4 samples.

Results

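Immediate early and early response genes are the transcripts that nerve cells switch on first when they fire, without waiting for new protein. The set described here holds 40 such genes, listed by name for this work. They are of 2 broad kinds. Most encode transcription factors, among them the AP-1 proteins of the Fos and Jun families, the EGR zinc finger proteins, NPAS4 and the NR4A nuclear receptors. The others encode proteins that act at the synapse or in signalling, such as Arc, the prostaglandin synthase Ptgs2, the polo-like kinases and the MAP kinase phosphatases that shut the signal off again. In the hippocampus their messages are widely used as a record of recent activity. Some respond to cell stress as well as to firing, and many are also induced in glia and vessel cells.

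The hippocampi were those of male DBA/2J mice, an inbred strain, at 8 to 10 weeks of age. The fluoxetine group drank water with fluoxetine, a serotonin reuptake inhibitor, at 18 mg/kg per day for 21 days, and the control group drank water without it (0 mg/kg per day). Each group of 12 mice was reduced to 2 pools of 6, each on 1 Affymetrix Mouse Genome 430 2.0 array, so n is 2 pools per group and each pool averages over its mice. The submitters describe tail suspension testing of mice in this study; whether the pooled mice were tested, and how long before tissue collection, is not given in the sources used here.

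Of the 40 members, 39 had a probeset annotated to them alone, 69 probesets in all, and Arl4d, a small GTPase gene, had none. The values are GCRMA intensities on a linear scale. A probeset was tested if it reached the submitters' minimum of 100 in at least 2 of the 4 arrays, and a gene is given at its brightest tested probeset. This left 35 member probesets and 27 member genes, 24 of them at 100 or more in every array. None of the 27 genes was tested through its fluoxetine arrays alone. Over the whole array 9030 genes were tested. Median intensity was 23.05 and 22.5 in fluoxetine pools 1 and 2, against 23.2 and 22.8 in control pools 1 and 2. All 8 hippocampal markers were tested (Prox1, Neurod6 and Zbtb20 among them). Alas2 and Hba-a1, the 2 blood markers with a probeset annotated to them alone, were near the floor. Hbb-b1 had none, and probesets shared between genes were not examined, so these values do not settle the blood content. Transthyretin (Ttr), the main product of the neighbouring choroid plexus, was at 51101 and 4429 in fluoxetine pools 1 and 2, against 37856 and 2002 in control pools 1 and 2, so the pools of each group differed in that tissue more than the groups did.

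The start regions of 4 members are shown. They are Fosl2, Gadd45b and Ier5, which rose in fluoxetine pools, and Fos, the gene for which the class is best known. Short letter patterns that proteins of this gene set, or the factors upstream of them, are known to bind were searched in them, and 3 of the 4 hold at least 1. Each run is the 250 bases before the annotated start, read 5′ to 3′ on the gene's strand from RefSeq sequence of build GRCm38.p6. Capitals mark the core of the cAMP response element (TGACG), the EGR site (GCGNGGGCG) and the TATA box (TATAAA), on either strand. The palindromic cAMP response element (TGACGTCA, which contains the core on both strands), the AP-1 site (TGACTCA) and the CArG box, the core of the serum response element, were searched too and are in none of the 4. Bases further upstream were not searched, so an element there would not be seen. The windows are chr12:85473640-85473889 (plus strand) for Fos, chr5:32136222-32136471 (plus) for Fosl2, chr10:80929841-80930090 (plus) for Gadd45b and chr1:155099637-155099886 (minus) for Ier5.
Fos: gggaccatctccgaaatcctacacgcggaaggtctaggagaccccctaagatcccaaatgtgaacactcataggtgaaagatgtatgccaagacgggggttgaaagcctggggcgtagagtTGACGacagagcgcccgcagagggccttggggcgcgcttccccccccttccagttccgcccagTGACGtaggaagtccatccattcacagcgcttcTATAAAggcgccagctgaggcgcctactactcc
Fosl2: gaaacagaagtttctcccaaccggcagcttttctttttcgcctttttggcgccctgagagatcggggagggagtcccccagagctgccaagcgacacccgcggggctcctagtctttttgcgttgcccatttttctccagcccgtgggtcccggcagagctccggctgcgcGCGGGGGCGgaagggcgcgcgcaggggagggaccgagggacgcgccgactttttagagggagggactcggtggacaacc
Gadd45b: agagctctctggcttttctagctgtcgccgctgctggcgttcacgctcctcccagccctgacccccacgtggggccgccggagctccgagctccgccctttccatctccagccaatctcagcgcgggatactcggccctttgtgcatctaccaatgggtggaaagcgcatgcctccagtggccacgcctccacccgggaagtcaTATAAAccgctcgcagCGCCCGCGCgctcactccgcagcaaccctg
Ier5: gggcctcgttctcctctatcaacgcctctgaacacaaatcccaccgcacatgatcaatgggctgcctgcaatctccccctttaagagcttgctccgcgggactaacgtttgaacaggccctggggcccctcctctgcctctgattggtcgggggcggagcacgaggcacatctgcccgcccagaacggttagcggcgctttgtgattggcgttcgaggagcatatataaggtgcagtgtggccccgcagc
Fos holds the cAMP response element core in 2 places, at 129 to 125 and 66 to 62 bases before the start, and a TATA box at 33 to 28. Fosl2 holds 1 EGR site, at 79 to 71 bases before the start. Gadd45b holds an EGR site at 30 to 22 and a TATA box at 46 to 41, and the Ier5 window holds none of these letters. The TATA box was searched as TATAAA only, so variants of it, such as the run tatataag in Ier5, were not counted.

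Start regions of 300 bases (250 before to 50 after the start) were at hand for 30 members, in 36 windows. The cAMP response element core stood in 20 of the 30 genes (66.7%), against 23.05% of the 27025 genes with a window. The palindromic element stood in Arl4d, Btg2, Dusp1, Maff and Plk2, 5 of the 30 (16.7%), against 2.03% of all genes. The CArG box stood in Dusp5 and Egr2 (6.67%, against 1.81%), the EGR site in 9 of the 30 (30.0%, against 6.27%) and the TATA box in 5 (16.7%, against 15.7%). The AP-1 site stood in 0 of the 30, against 5.95% of all genes. The windows of the members were richer in G and C (median 62.5%) than all windows (52.7%), which bears on the EGR letters in particular. These are counts of letters in a window, with no test, and say nothing of binding. Fosl1, Crem, Egr1, Egr3, Klf10, Ier2, Dusp4, Arc, Sik1 and Trib1 were not analysed for sequence here.

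Of the 27 tested members, 5 rose in fluoxetine pools and 0 fell. They were Egr3, Ier5, Klf10, Gadd45b and Fosl2, at 1.63 to 2.45 times the control level (limma, Benjamini-Hochberg adjusted p 0.0252 to 0.0380 over all 16938 tested probesets). Over all 9030 tested genes 1.31% were called higher and 0.554% lower. A further 11 members lay higher in both fluoxetine pools than in both control pools without passing the test, so that 16 of 27 had groups apart in that direction, where the background over all genes was 23.6%. Klf6 alone had groups apart in the other direction, where the background was 32.7%. That count of 1 became 8 without fluoxetine pool 2 (43.2% of all genes), 4 without control pool 2 (45.5%) and 2 without either pool 1 (42.3% without control pool 1, 46.7% without fluoxetine pool 1). The median log2 fold change of the tested members was 0.30, against -0.026 over all tested genes. In whole tissue, more cells of a type and more RNA per cell cannot be told apart. With 2 arrays a group an exact permutation test cannot give a p under 0.333, so each call rests on limma's moderated test. With any 1 of the 4 arrays left out limma called 0 of the 27, with 12 to 18 at an unadjusted p under 0.05, and 14 were at that level with all 4 arrays. With no filter on intensity it also called 0, with 10 members at that level, and the 5 had adjusted p between 0.147 and 0.181. With the filter and all 4 arrays, 1991 of all 9030 tested genes were at an unadjusted p under 0.05 by limma.

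**Figure D1:**
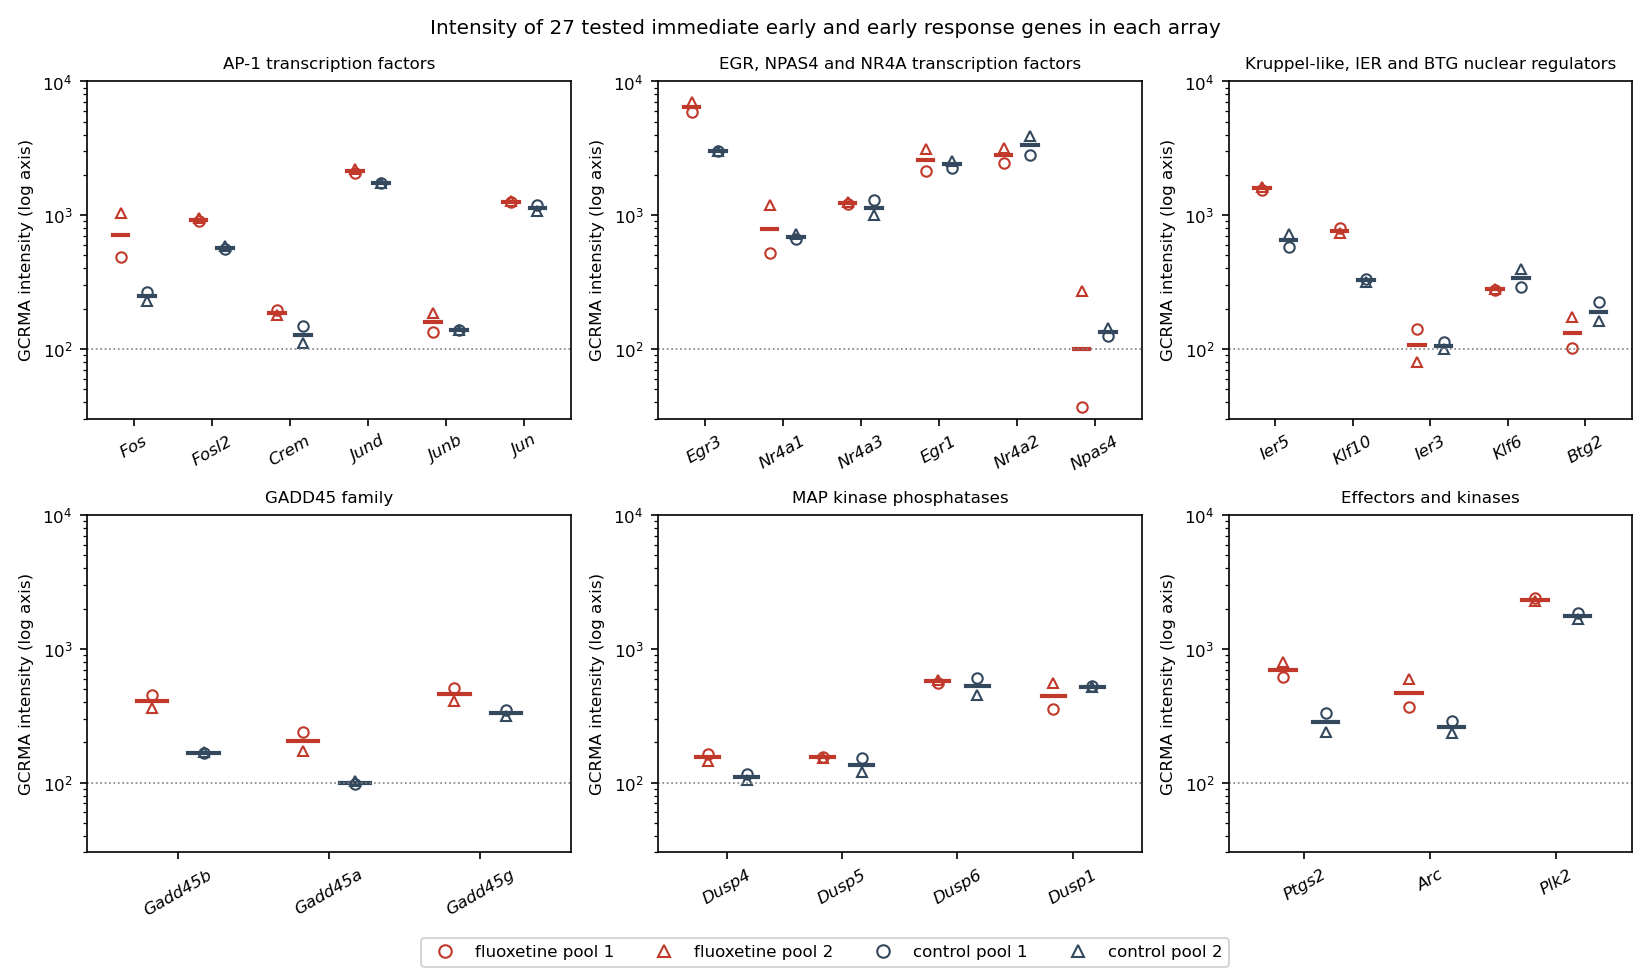
GCRMA intensity (log axis) of the 27 tested members in each array, by role; red is fluoxetine and dark blue control, circles are pool 1 and triangles pool 2, bars geometric means, and the dotted line the minimum of 100. Egr3, Ier5, Klf10, Gadd45b and Fosl2 have groups well apart, with at most 0.32 on the log2 scale between the pools of a group. The fluoxetine pools of Fos, Nr4a1 and Npas4 lie far from each other.

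Among the AP-1 factors and their relatives, 6 of 10 were tested and 1 rose. Fosl2, which encodes the long-lived Fos family protein FRA2, was at 898 and 959 in fluoxetine pools 1 and 2, against 559 and 584 in control pools 1 and 2. Its pools nearly matched within each group, and the groups were well apart (log2 fold change 0.70 ± 0.07, SE, adjusted p = 0.0380). Fos itself, whose protein pairs with Jun to form AP-1, was at 483 and 1039 in fluoxetine pools, against 268 and 229.8 in control pools. Both fluoxetine pools were above both control pools, but they differed from each other 2.15-fold, and the log2 fold change of 1.51 ± 0.37 did not pass (adjusted p = 0.117). It was the largest fold change among the 27, and its SE was 3 or more times that of each called member.

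The Jun genes, which encode the partners of Fos proteins, did not pass. Jund, known for steady expression, averaged 2148 in fluoxetine and 1742 in control pools with groups apart (log2 0.30 ± 0.07, 95% interval from 0.11 to 0.49, adjusted p = 0.115). Jun averaged 1259 in fluoxetine and 1127 in control pools (log2 0.16 ± 0.08, adjusted p = 0.311). Its second probeset gave a log2 fold change of 0.27 (adjusted p = 0.220), and the groups were apart at both probesets. Junb had overlapping groups, 135 and 186 in fluoxetine pools against 139 and 138 in control pools. Crem, which encodes activators and the inducible repressor ICER of cAMP-responsive genes, was at 194 and 179 in fluoxetine pools, against 148 and 111 in control pools (log2 0.55 ± 0.15, adjusted p = 0.145). Its other 3 probesets were too dim to test. Fosb, Fosl1, Atf3 and Maff were too dim to test, with highest values of 14.9, 4.72, 4.98 and 7.89. Fosb, whose splice form ΔFosB builds up with repeated stimulation, was at 7.45 and 14.9 in fluoxetine pools and 3.98 and 4.31 in control pools, all far under the minimum.

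Of the EGR, NPAS4 and NR4A factors, 6 of 8 were tested and 1 rose. Egr3, a zinc finger factor with a role in hippocampal synaptic plasticity, was at 5914 and 7036 in fluoxetine pools, against 3046 and 3017 in control pools. The groups were far apart, and the control pools nearly coincided (log2 1.09 ± 0.10, adjusted p = 0.0352). Egr1, its close relative (also known as Zif268), was at 2125 and 3100.5 in fluoxetine pools and at 2238 and 2563 in control pools. The groups overlapped (log2 0.10, with a 95% interval from -0.42 to 0.62, adjusted p = 0.797), and this interval lies below that of Egr3, from 0.82 to 1.36; the difference between the genes was not tested. Egr2, a further member of the family, stood out in 1 array only. At its brighter probeset it was at 29.5 and 142 in fluoxetine pools 1 and 2, against 22.6 and 14.6 in control pools, and at the other at 21.8 and 95.3, against 19.8 and 15.8. It reached 100 in 1 array and was not tested. Egr4 did not exceed 2.50.

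The NR4A orphan nuclear receptors did not pass. Nr4a1 (Nur77) was at 524 and 1201 in fluoxetine pools, against 661 and 722 in control pools, so 1 fluoxetine pool lay above and 1 below both controls (adjusted p = 0.795). Nr4a2 (Nurr1) had 4 tested probesets, all with log2 fold changes between -0.35 and -0.12, and the brightest averaged 2801 in fluoxetine and 3325 in control pools with overlapping groups. Nr4a3 averaged 1234 in fluoxetine and 1137 in control pools (log2 0.12 ± 0.14). Npas4, a factor induced by calcium entry and little else, was at 36.7 and 269.8 in fluoxetine pools, against 125 and 142 in control pools. The fluoxetine pools lay on either side of the controls, 7.35-fold apart, and the fit says nothing about its direction (log2 -0.42, 95% interval from -2.86 to 2.02).

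Among the Krüppel-like, IER and BTG genes, 5 of 8 were tested and 2 rose. Ier5, a nuclear protein gene induced by growth factors and by heat stress, was at 1547 and 1631 in fluoxetine pools, against 582 and 722 in control pools. It was at 2.45 times control (log2 1.29 ± 0.12, adjusted p = 0.0352). Its second probeset, under 100 throughout and not tested, was at 92.2 and 98.1 in fluoxetine pools, against 48.6 and 41.3 in control pools. Klf10, a repressor first found as a TGF-beta inducible early gene, was at 797 and 736 in fluoxetine pools, against 336 and 315 in control pools. It had the smallest adjusted p of the members (log2 1.24 ± 0.08, adjusted p = 0.0252), and the 2 pools of each group were close.

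The other genes of this kind did not follow. Btg2, an antiproliferative gene induced by p53 and by firing, was at 101 and 173 in fluoxetine pools, against 223 and 162 in control pools. The groups overlapped, and the log2 fold change of -0.53 ± 0.30 was the lowest of the 27 (adjusted p = 0.369). Klf6 had 3 tested probesets with log2 fold changes of -0.28, -0.11 and -0.072, and at the brightest both fluoxetine pools (277 and 279.9) were under both control pools (292 and 394; adjusted p = 0.345). Ier3, a stress-induced survival gene, was at 141 and 80.3 in fluoxetine pools and 112 and 99.9 in control pools, with means that were nearly equal. Klf2, Klf4 and Ier2, which endothelial cells also express, were not tested, with highest values of 60.7, 39.9 and 43.9.

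The GADD45 proteins, small stress sensors that also take part in activity-driven DNA demethylation, were higher in fluoxetine pools in all 3 genes, of which 1 passed. Gadd45b was at 454 and 363 in fluoxetine pools, against 167 and 168 in control pools (log2 1.28 ± 0.12, adjusted p = 0.0352). Its second tested probeset was at 273 and 259 in fluoxetine pools, against 91.8 and 72.4 in control pools, and passed too (adjusted p = 0.0262); both control values lie under 100, so it was at least 2.66-fold higher. This probeset met the minimum through its fluoxetine arrays alone, so that it had to differ in this direction if at all. Gadd45a was at 239 and 173 in fluoxetine pools, against 96.9 and 103 in control pools, 1 of which reached the minimum. Its groups were 2.04-fold apart without a call (log2 1.03 ± 0.17, adjusted p = 0.0672). Gadd45g was at 514 and 408 in fluoxetine pools, against 350.0 and 316 in control pools (log2 0.46 ± 0.13, adjusted p = 0.150). In each of the 3 the higher fluoxetine value was that of pool 1, the reverse of Fos, Arc and Npas4.

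**Figure D2:**
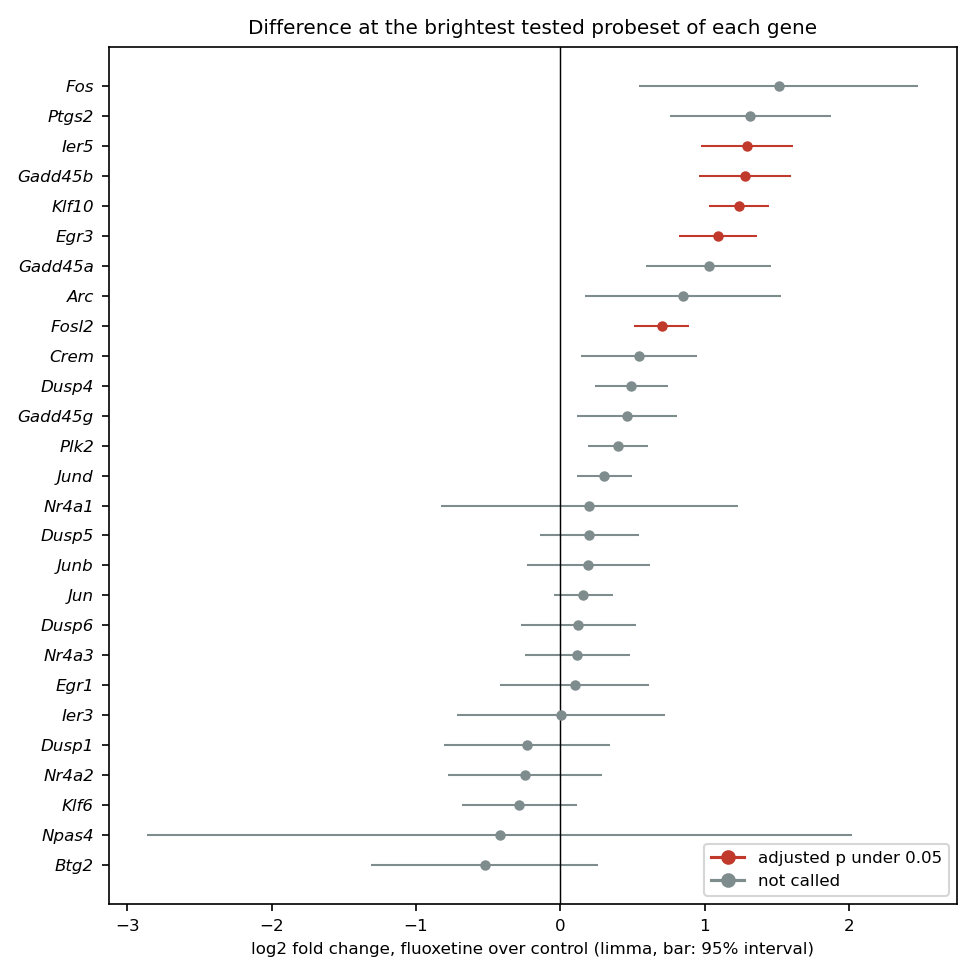
Log2 fold change, fluoxetine over control, of the 27 tested members with 95% limma intervals, largest at the top; red marks an adjusted p under 0.05. Fos, Ptgs2, Gadd45a and Arc lie among the largest changes with wide intervals and are not called, and the interval of Npas4 runs from -2.86 to 2.02.

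The MAP kinase phosphatases, which end the kinase signal that switches these genes on, had 4 tested members. By limma 0 were called, with 1 at an unadjusted p under 0.05. That 1 was Dusp4, which is nuclear and averaged 155 in fluoxetine and 109.9 in control pools with groups apart (log2 0.49 ± 0.10, adjusted p = 0.0867). Dusp5 averaged 155 in fluoxetine and 135 in control pools, and Dusp6, which acts on ERK in the cytoplasm, 571 in fluoxetine and 524 in control pools (adjusted p = 0.426 for Dusp5 and 0.668 for Dusp6). Dusp1, the phosphatase most often used as an activity marker, was at 355 and 558 in fluoxetine pools, against 528 and 514 in control pools, and its groups overlapped.

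Of the effectors and kinases, Arc, Ptgs2 and Plk2 were tested, and all 3 had both fluoxetine pools above both control pools without a call. By limma 0 of the 3 passed, with 3 at an unadjusted p under 0.05. Ptgs2, the inducible cyclooxygenase COX-2, was at 611 and 802 in fluoxetine pools, against 334 and 237 in control pools, 2.49 times control (log2 1.31 ± 0.21, adjusted p = 0.0675). Its dimmer probeset was at 159.6 and 199 in fluoxetine pools, against 115 and 81.2 in control pools (log2 0.88 ± 0.20). Arc, the cytoskeletal protein that drives removal of AMPA receptors from synapses, was at 365 and 599 in fluoxetine pools, against 289 and 233 in control pools (log2 0.85 ± 0.26, adjusted p = 0.162). Plk2, a kinase that weakens over-active synapses, averaged 2333 in fluoxetine and 1768 in control pools (log2 0.40 ± 0.08, adjusted p = 0.0896). Plk3, Sik1 and Trib1 were not tested, with highest values of 7.81, 8.46 and 15.0.

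By the submitters' own rule, a difference of at least 2-fold between group means without a test, 7 of the 27 members were higher and 0 lower, where the background over all genes for higher was 0.797%. These were Egr3, Ier5, Klf10 and Gadd45b of the called genes, and Fos, Ptgs2 and Gadd45a. Fosl2 passed the test at a smaller fold. Over probesets, 6 of the 35 tested member probesets were called, all higher and with the Gadd45b probeset named above among them, where 1.72% of all tested probesets were called in either direction. In the 5 member genes with more than 1 tested probeset the probesets had the same sign.

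The pools of a group differed more in these genes than in most. The absolute log2 difference between the 2 fluoxetine pools had a median of 0.32 over the 27 members, against 0.09 over all tested genes, and between the 2 control pools it had a median of 0.17, against 0.08. It was over 0.5 in 8 of the 27 members (29.6%) for fluoxetine pools, against 1.79% of all tested genes, and in 0 of the 27 for control pools, against 1.43%. Each of the 8 members had 1 tested probeset, so that count does not rest on the choice of the brightest probeset. The order of the 2 medians and the control count of 0 do. Over all 35 tested member probesets the median was 0.16 between fluoxetine pools, against 0.22 between control pools, and the difference was over 0.5 in 8 probesets (22.9%) for fluoxetine pools and in 3 (8.57%) for control pools, against 2.05% and 1.84% of all tested probesets. Those 3 were 2 dimmer probesets of Nr4a2 and 1 of Ptgs2. Of the 9030 tested genes, the 3 with the largest ratio of fluoxetine pool 2 to pool 1 were all members, namely Npas4 (7.35), Nr4a1 (2.29) and Fos (2.15). Btg2 (1.72) and Arc (1.64) ranked 12 and 15, and Dusp1 (1.57) and Egr1 (1.46) ranked 22 and 43. These genes were singled out after their values were seen, and 2 pools allow no test of the difference between them.

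**Figure D3:**
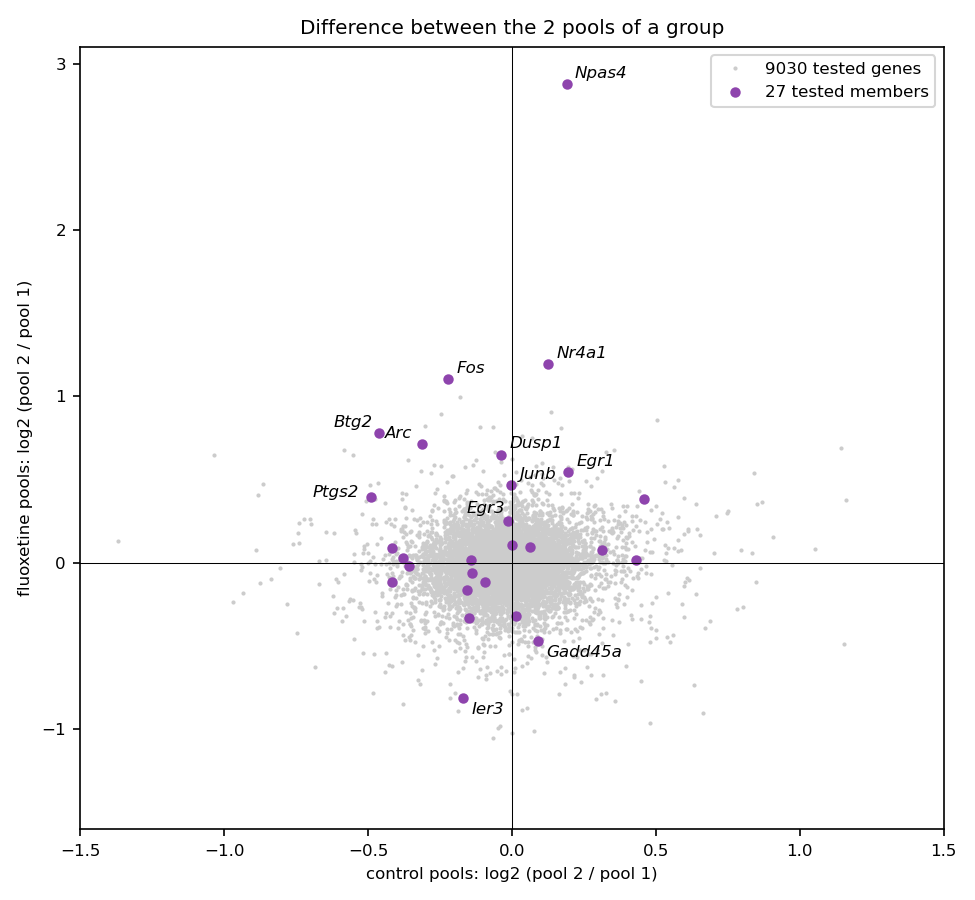
Log2 ratio of pool 2 to pool 1 in the control group (x axis) and the fluoxetine group (y axis); grey points are all tested genes, of which 4 lie beyond the axes, and purple points the 27 members. Npas4, Nr4a1 and Fos are at the top, while no member exceeds 0.5 in either direction on the x axis.

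The split ran through the set. The called genes, for which the test itself asks a small spread, differed by at most 0.32 on the log2 scale between pools of a group, while Npas4, Fos, Nr4a1, Egr2 and Arc were high in fluoxetine pool 2. Ier3 and the GADD45 genes, the called Gadd45b among them, were higher in fluoxetine pool 1 than in pool 2. For 6 uncalled members the direction turned when 1 fluoxetine pool was left out. Without pool 1 Npas4 was at log2 1.02, Dusp1 at 0.10 and Ier3 at -0.40. Without pool 2 Nr4a1 was at log2 -0.40, Egr1 at -0.17 and Junb at -0.039. Fluoxetine pool 2 was higher than pool 1 in 18 of the 27 members, against 45.9% of all tested genes. This was so in 18 of 23 tested genes in the list of other early response genes. It was so in 10 of 13 in the list of later effectors of activity, and in 3 of 9 in the heat and handling stress list. Homer1 and Nrn1 stand in both the early response and the later effector list and are counted in each. Bag3, a heat shock co-chaperone, was at 105 and 178 in fluoxetine pools 1 and 2, against 64.0 and 67.1 in control pools, so that it was tested through its fluoxetine arrays alone, and Spry2, a feedback inhibitor of growth factor signalling, at 903 and 1434, against 798 and 766. Choroid plexus Ttr was the other way, high in pool 1 of both groups. The part of any of these in the members' values was not tested.

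Other genes of the pathway were set beside the members. Of 23 tested other early response genes, 2 rose and 0 fell: Rgs2, a brake on G protein signalling, at 5420.2 and 6802 in fluoxetine pools, against 2563 and 2829 in control pools (log2 1.17 ± 0.13, adjusted p = 0.0402), and the cell cycle regulator Sertad1 (log2 1.24 ± 0.16, adjusted p = 0.0460). Their median was 0.21. Rasd1, a small G protein gene, had a log2 fold change of -0.60 and Srxn1, an antioxidant enzyme gene, one of 0.51, neither of them called (adjusted p = 0.159 for Rasd1 and 0.0809 for Srxn1). Of 13 tested later effectors of activity, 8 rose and 0 fell, with a median of 0.98. Earlier results of these data were known when the members and all the lists were chosen. None of their counts is thus independent evidence of direction. Rgs4, another G protein brake, was at 4997 and 5088 in fluoxetine pools, against 2438 and 2570 in control pools (log2 1.01 ± 0.07, adjusted p = 0.0252), and the 8 also held Penk, Inhba, Nptx2, Npy, Bdnf, Scg2 and Vgf, with log2 fold changes between 0.80 (Vgf) and 3.74 (Penk). Inhba and Nptx2 reached the minimum in their fluoxetine arrays alone and could be called in this direction only; of the other 11 tested genes 6 rose, and their median was 0.80.

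No gene upstream of the members was called. Of 21 tested kinases and factors, limma called 0, with 6 at an unadjusted p under 0.05, where 1991 of all 9030 tested genes were at that level. The median was -0.095, and 11 of the 21 had both fluoxetine pools below both control pools, against 32.7% of all tested genes. The kinase gene Rps6ka5 (MSK1), which phosphorylates CREB and histone H3, was at 365 and 328 in fluoxetine pools, against 528 and 465 in control pools (log2 -0.52 ± 0.10, adjusted p = 0.0847). Camk4, a nuclear calcium-dependent kinase, had a log2 fold change of -0.45 ± 0.08 (adjusted p = 0.0726), and the ternary complex factor gene Elk3 one of 0.49 ± 0.12 (adjusted p = 0.114). These are message levels, whereas such proteins are mostly switched by phosphorylation.

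**Figure D4:**
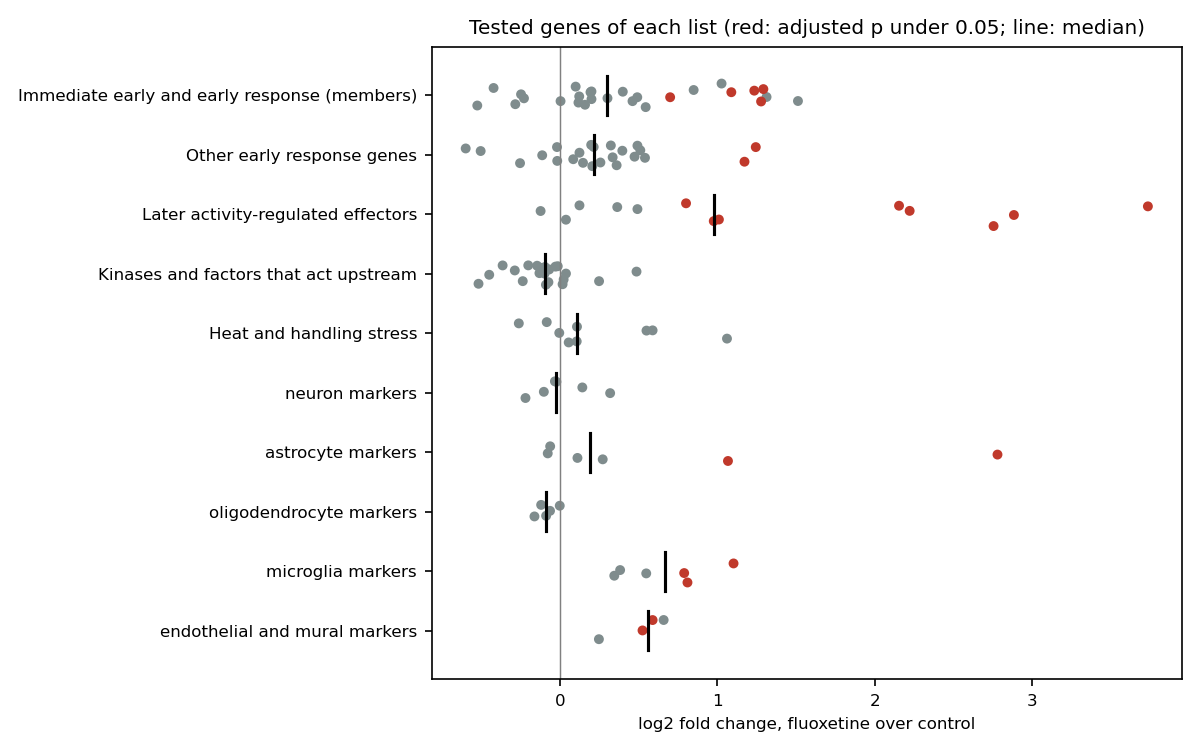
Log2 fold change, fluoxetine over control, of each tested gene in the member list and in 9 other lists; red marks an adjusted p under 0.05 and the black line the median. The members' median of 0.30 lies between those of the later effectors (0.98) and the upstream genes (-0.095), and the microglia list is at 0.67.

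Markers of some other cell types differed between the groups as well. Sums below are over every probeset of a list, those of untested genes included. All 6 microglia markers were higher in fluoxetine pools, with 3 called (C1qa, C1qb and Tyrobp), and their summed intensity was 8505 and 8324 in fluoxetine pools, against 5308 and 5233 in control pools. Of 6 endothelial and mural markers, 4 were tested and had groups apart and higher, with 2 called (Rgs5 and Abcc9); Flt1 was tested through its fluoxetine arrays alone. The sum over all 6 was 5387 and 5264 in fluoxetine pools, against 3695 and 3491 in control pools. Of 6 astrocyte markers, Gfap and Aqp4 were called, while the other 4 had log2 fold changes of -0.077 (Aldoc), -0.062 (Slc1a3), 0.11 (Slc1a2) and 0.27 (Gja1), and the sum was 122985 and 131575 in fluoxetine pools, against 106903 and 110479.8 in control pools. By limma 0 of 6 neuron markers and 0 of 5 tested oligodendrocyte markers were called, with 1 and 0 at an unadjusted p under 0.05. Of the 8 hippocampal markers limma called 0, with 3 at that level. Their groups were apart and higher in 2 genes and apart and lower in 2. The largest differences were those of C1ql2 (log2 1.11 ± 0.17, adjusted p = 0.0636) and Fibcd1 (log2 -0.82 ± 0.25, adjusted p = 0.162). Of 9 tested heat and handling stress genes limma called 0, with 4 at an unadjusted p under 0.05, and their median log2 fold change was 0.11. Of the 4, Hsph1 (log2 0.55 ± 0.09, adjusted p = 0.0668), Hspa1b (log2 0.59 ± 0.17, adjusted p = 0.153) and Bag3 were higher. Txnip was lower (log2 -0.26 ± 0.09, adjusted p = 0.192). The part of these cell types in the members' differences was not tested.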

How the data were processed

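The authors deposited linear intensities, made in ArrayAssist by the GCRMA method, per the labels (versions not given in the sources used here). This method takes probe sequence into account for background, equalises arrays and draws dim probesets to a floor. Groups and pool numbers came from sample titles. Of 45101 probesets, 64 control probesets were left out and 16938 were tested (100 or more in at least 2 of 4 arrays), on log2 values with no pseudocount. Genes were named from probesets with 1 symbol in the platform annotation (34958, of which 34754 matched the RefSeq gene table by gene number and 0 changed name). Fluoxetine was compared with control by limma 3.58.1 in R 4.3.3 (lmFit, eBayes), as a two-sided test; p-values were adjusted by Benjamini-Hochberg across the 16938 probesets, and 0.05 was the threshold; errors are limma standard errors and means are geometric. The procedure was tested on simulated data. The number of arrays limits the precision, and the pools are described as separate mice.

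Members, lists and alternatives were chosen with earlier results of these data known. Every member is accounted for; members with a call or an absolute log2 fold change of at least 0.5 have each array's value, and others further values where the pools differed. From other lists, called genes and a few others are named. Motifs were searched in RefSeq windows of GRCm38.p6.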

Additional observations from a re-analysis of the deposited data

Results flagged for a closer look

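The 18 hybridisation spike-in probesets, RNA added to every sample in fixed amount and used in no comparison above, lay above both control arrays in each fluoxetine array. Their median log2 difference was 0.36 (range 0.17 to 0.55), against -0.036 for the probesets tested. The order of hybridisation is not given in the sources used here, and the part of this difference in the members' values was not tested.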

How the results depend on the processing

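The 5 called members were the same 5 under both other intensity filters (100 in at least 1 array, or a mean of 100), a floor of 100, a pseudocount of 32, the median over a gene's probesets and without _s_at, _x_at and _a_at probesets. All 5 were kept among 7 called under quantile normalization and under median centring (Gadd45a and Ptgs2 added) and among 8 with eBayes trend and robust settings (Plk2 added too). limma called 0 members with no intensity filter (10 at an unadjusted p under 0.05), 0 with the pool number as a replicate block (15 at that level; adjusted p of the 5 between 0.0809 and 0.101) and 0 with any array left out. The called probesets, 291 with all settings as reported, numbered 532 with trend and robust settings, 163 with a minimum in 1 array, 193 without the 3 probeset types, 134 by the 2-fold rule, 9 with the replicate block, 0 with no filter (5396 at an unadjusted p under 0.05, among 45037) and 0 with any array left out (2657 to 3515). The labels do not say that equal pool numbers share anything; differences between pools 1 and 2 correlated at 0.14 between the groups.

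Members with groups apart and higher, 16 of 27, numbered 16 to 21 with an array left out, an alternative chosen after seeing the data (31.4% to 35.0% of all genes). Directions that turned were those of uncalled members. With values floored at 100 Npas4 was at log2 0.30. With an array left out the log2 fold change ran from -0.55 to 0.10 for Dusp1, -0.086 to 0.33 for Dusp6, -0.17 to 0.37 for Egr1, -0.40 to 0.41 for Ier3, -0.039 to 0.43 for Junb, -1.86 to 1.02 for Npas4, -0.40 to 0.80 for Nr4a1 and -0.072 to 0.31 for Nr4a3. The cause was not tested, beyond the pool values printed above. Depth is set by signal over background: 11 of the 12 untested members with a probeset were under 100 in every array, which says nothing about their change.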
